A study of Mus musculus with 9 samples.

Results

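The LSM (Sm-like) genes encode small RNA-binding proteins that share the Sm fold, and 10 of them were followed here across oxygen levels in mouse corneal epithelial cells. They were Lsm12 and its relatives Lsm1, Lsm2, Lsm3, Lsm4, Lsm5, Lsm6, Lsm7, Lsm8 and Lsm10, found by gene symbol among the 26445 entries of the table. All 10 were present, and all 10 were among the 11856 genes that entered the tests, each with at least 1 FPKM in all 9 libraries. Lsm12 was selected on its FPKM at 1% against 21% oxygen, already known to be low in these data, so its values are given as a description with no test. The 9 relatives were taken by name, and each has the test of the fit across all genes. They are not all of the genes named LSM: Lsm11, Lsm14a and Lsm14b are given with the other LSM-domain proteins.

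The RNA came from the wild-type cell line iCell-0093a, which the labels call corneal epithelial cells from the cornea of the mouse. The cells were kept at 21%, 8% or 1% oxygen, with 3 libraries per level, and had no other treatment in the labels. How long they were kept there is not stated in the labels. Nor do the labels tell whether replicates came from separate cultures, and the p-values therefore measure only the spread between these libraries, which may be technical.

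Most LSM proteins work as ring-shaped assemblies that hold the 3′ end of an RNA. LSM1 joins LSM2 to LSM7 in a cytoplasmic ring that binds shortened mRNA tails and promotes decapping, while LSM8 joins the same shared subunits in a nuclear ring that holds U6 small nuclear RNA for splicing. LSM10 takes the place of a canonical Sm subunit in the U7 particle, which cleaves the 3′ ends of replication-dependent histone mRNAs. LSM12 belongs to neither ring. In human cells it has been described as a receptor for NAADP, a messenger that releases calcium from lysosomes through the pore channels TPC1 and TPC2, and it binds ataxin-2, a regulator of mRNA translation.

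Lsm12 (ENSMUSG00000020922) lies on the minus strand of chromosome 11, at chr11:102162497-102185296 on GRCm38, the assembly that mm10 names. GENCODE M21 annotates 5 transcripts, of which 2 are coding, with lengths of 2256 and 2015 bases. The longer holds exon 2, which the shorter skips. Exon 2 is coding throughout, spans 134 bases at chr11:102182858-102182991 and accounts for most of the 174 coding bases by which the transcripts differ, the other 40 coming from exon 1. It is shown because a gene-level value combines the transcripts, so the values that follow cannot say which of the coding forms changed. The strand of the gene is printed, 5′ to 3′.
Lsm12 exon 2: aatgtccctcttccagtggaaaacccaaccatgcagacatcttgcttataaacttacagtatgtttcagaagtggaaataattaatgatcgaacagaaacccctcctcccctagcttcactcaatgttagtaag

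RefSeq promoter windows on GRCm38.p6 were matched for 7 of the 10 members, in 9 entries, and Lsm12, Lsm1 and Lsm4 had none. The 250 bases before each start site were searched on both strands for the core of the hypoxia-inducible factor element, ACGTG or GCGTG, for the E-box CACGTG, which contains ACGTG, and for the NRF1 motif, GCGCA and GCGC with any base between them. The hypoxia-inducible core was present in 7 of the 9 entries and in 38.6% of 32851 promoter windows of the same length. Lsm2 and Lsm7 had 2 entries each, and those of Lsm7 overlap and share matches, so the entries are not independent. By gene, the core was present for Lsm2, Lsm3, Lsm7, Lsm8 and Lsm10 and absent for Lsm5 and Lsm6. The E-box was in none of the 9 entries and in 6.02% of all windows, and the NRF1 motif was in 2 entries, both of Lsm7, and in 3.74% of all windows. Lsm2 and Lsm6 are printed because both were lower at 8% oxygen while their windows differ in this search. Lsm2, at chr17:34981604-34981853 on the plus strand, had 2 matches, shown in capitals as CACGC, the complement read from the other strand. Lsm6, at chr8:78821153-78821402 on the minus strand, had no match.
Lsm2 promoter: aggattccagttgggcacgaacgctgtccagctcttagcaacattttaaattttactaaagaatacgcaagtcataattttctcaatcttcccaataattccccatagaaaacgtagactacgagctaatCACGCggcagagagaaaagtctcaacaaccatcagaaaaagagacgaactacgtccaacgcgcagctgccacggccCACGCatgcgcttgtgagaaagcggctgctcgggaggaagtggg
Lsm6 promoter: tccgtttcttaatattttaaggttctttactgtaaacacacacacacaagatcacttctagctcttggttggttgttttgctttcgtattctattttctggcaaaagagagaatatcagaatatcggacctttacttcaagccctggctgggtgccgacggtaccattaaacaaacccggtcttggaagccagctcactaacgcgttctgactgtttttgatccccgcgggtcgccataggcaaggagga

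The libraries held between 19837 and 20569 genes above 0, and their FPKM sums lay between 317704 and 333178. FPKM is a level per kilobase of transcript and scaled to the mapped fragments of a library, and the depth behind it is unknown. The gene values here behave as sums over transcripts divided by the union length of all annotated exons. That length was 1038 bases for Lsm4, 2388 for Lsm12 and 4199 for Lsm8. A gene whose union is far longer than its expressed transcript is understated. Levels, ranks, sums and ratios between different genes are therefore rough, while the divisor of each gene is the same in all libraries. Epithelial genes were present in all 9 libraries, with mean levels of 572 FPKM for Krt8, 86.5 for Epcam and 67.2 for Krt14. The corneal regulator Pax6 was at most 0.0208 FPKM and the basal epithelial factor Trp63 at most 0.836, although the other 6 of 8 corneal epithelial markers listed were at 1 FPKM or more in all 9 libraries. Vim, a mesenchymal filament gene, averaged 857 FPKM, while the keratocyte gene Lum was at most 0.0208 and the leukocyte gene Ptprc at most 0.0101. Other genes of those marker lists were present, with means of 7.64 FPKM for the stromal gene Pdgfra and 34.8 for the leukocyte gene Cd68 and a maximum of 1.58 for Csf1r. One library stood apart: in 21% replicate 3 the genes Mcm2 to Mcm7 of the DNA replication helicase had a median deviation of 1.22 log2 units from their own means over the 9 libraries, against −0.52 to 0.25 in the other 8. In bulk RNA of this kind, fewer cells expressing a gene and less of its RNA per cell cannot be told apart.

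Lsm12 had nearly the same level at 21% and 8% oxygen and a much lower one at 1%. Its values were 16.9, 17.1 and 17.7 FPKM in the 21% libraries, 16.1, 15.7 and 16.5 in the 8% libraries and 7.08, 6.48 and 7.31 in the 1% libraries. The highest 1% library was thus far below the lowest of the other 6, and the 8% libraries also lay below every 21% library by a much smaller margin. The means were 17.2 ± 0.393, 16.1 ± 0.387 and 6.96 ± 0.428 FPKM (SD, n = 3 each), so the mean at 1% was 0.404 of that at 21% and 0.432 of that at 8%. On the log2(FPKM + 1) scale, which slightly understates the change of a gene at this level, the differences were −0.09 at 8% against 21%, −1.20 at 1% against 21% and −1.11 at 1% against 8%. The coefficient of variation within a level was 2.28% at 21% and 2.40% at 8%, the smallest of the 10 members, and 6.15% at 1%, where Lsm6 and Lsm4 were more even.

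**Figure D1:**
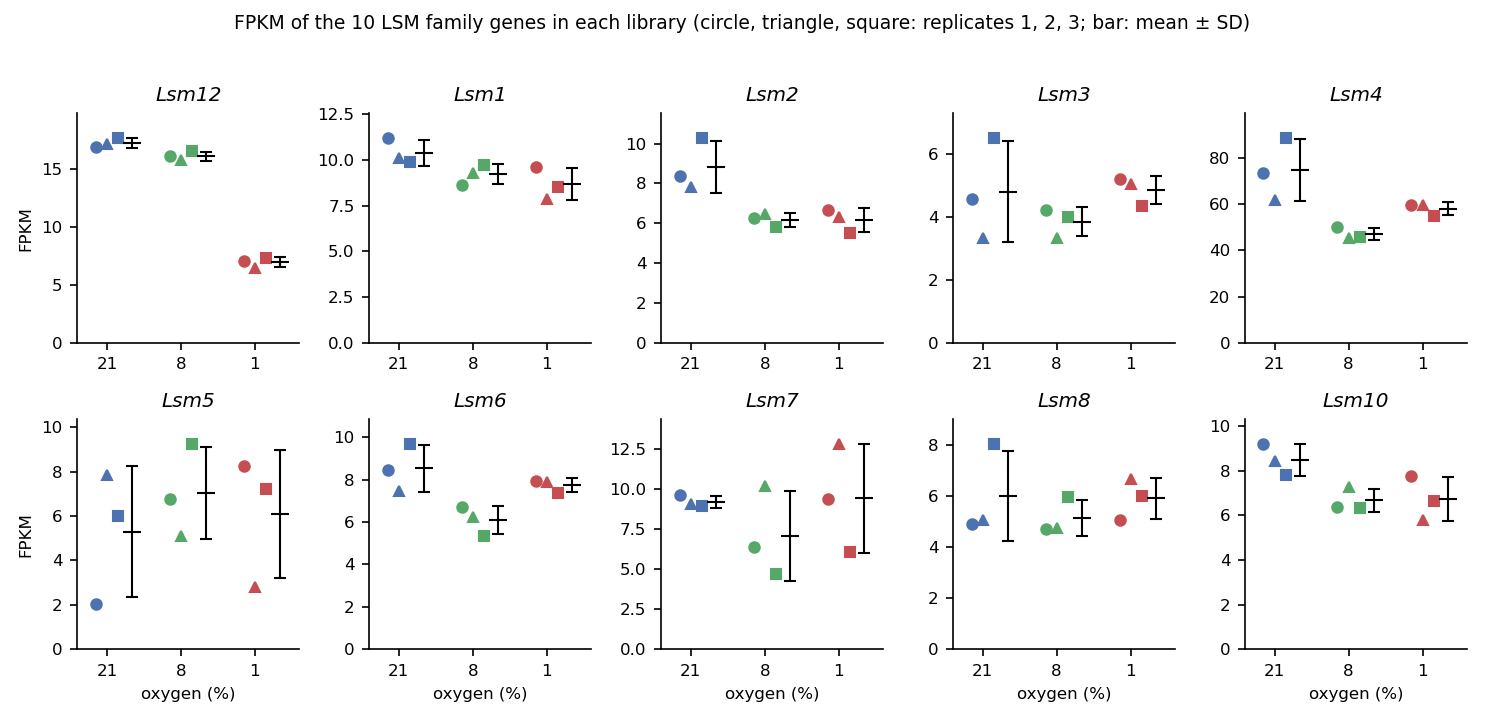
FPKM of the 10 LSM family genes (y axis, from 0) by oxygen level (x axis, %), with a marker for each library and a bar for the mean ± SD of 3 libraries. Lsm12 sat between 15.7 and 17.7 FPKM in the 21% and 8% libraries and between 6.48 and 7.31 in the 1% libraries, and Lsm4 also had 3 levels that did not overlap, with 8% the lowest.

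Few genes shared a difference of this size that set 1% apart from both other levels. Of 7237 genes that averaged 5 FPKM or more, 16 were lower by at least 1 log2 unit at 1% against 21%. Of these, 6 were also lower by as much at 1% against 8%. The cut of 1 log2 unit was set after the values were seen, and Lsm12 was selected on its fall. The counts and the ranks below are therefore description only. Among those 6, B3gnt2, a glycosyltransferase that extends polylactosamine chains, and Lsm12 were the protein-coding genes, a pair singled out after their values were seen. B3gnt2 was far less even, at 24.6 ± 0.82, 14.6 ± 10.01 and 4.72 ± 4.14 FPKM at 21%, 8% and 1% (SD, n = 3). Ranked over the 11856 genes tested from the most negative log2 difference, Lsm12 stood at place 17 for 1% against 21%, 23 for 1% against 8% and 4975 for 8% against 21%.

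Among the relatives, 3 subunits shared by both rings, Lsm4, Lsm2 and Lsm6, fell at 8% oxygen, and none of the 9 passed the test at 1% oxygen. At 8% against 21%, 3 of 9 were called lower and 0 higher at an adjusted p of 0.05, where 23.3% of all genes tested were called, 14.9% lower and 8.38% higher (limma with Benjamini-Hochberg adjustment over all genes tested, two-sided). Outside these 9, Lsm11 and Lsm14b were called higher in this comparison and Lsm14a was not called. The estimate was negative for 8 of the 9 and for 6621 of the 11856 genes tested. The median log2 difference of the relatives was −0.31 against −0.04 over all genes tested. The 3 libraries of each level did not overlap for 5 of the 9, all lower at 8%, where 40.9% of all genes did not overlap and 25.5% did so in the lower direction. The all-gene split between higher and lower calls depends on scaling: 35.9% of calls were higher as deposited, 49.1% after median-ratio scaling and 46.6% after quantile normalization, with 3 members called each time.

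Lsm4 (ENSMUSG00000031848, chr8:70673248-70678752, plus strand) had the highest FPKM among the members, with a short union exon length, and the largest fall among the relatives. Coordinates of the members are those of GENCODE M21 on GRCm38. Lsm4 encodes a ring subunit with a long arginine-glycine-rich tail known for a role in processing bodies. Its values were 73.5, 61.8 and 88.6 FPKM at 21% oxygen, 50.2, 45.5 and 45.6 at 8% and 59.8, 59.5 and 54.8 at 1%. The 1% libraries lay between the other levels, with no overlap on either side. The means were 74.6 ± 13.4, 47.1 ± 2.70 and 58.0 ± 2.79 (SD, n = 3). The log2 difference at 8% against 21% was −0.64 with a standard error of 0.118 (limma, adjusted p = 0.00821). At 1% against 21% it was −0.34 with a 95% interval of −0.61 to −0.07, which did not pass (limma, adjusted p = 0.13). It passed when 21% replicate 2 was left out (adjusted p = 0.0496), over a range of 0.0496 to 0.268 in all alternatives. At 1% against 8% it was 0.30, with an interval of 0.03 to 0.56 (limma, adjusted p = 0.227).

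Lsm2 (ENSMUSG00000007050, chr17:34981862-34985891, plus strand), which encodes another shared subunit, was low at both reduced oxygen levels. Its values were 8.35, 7.84 and 10.3 FPKM at 21% oxygen, 6.27, 6.45 and 5.80 at 8% and 6.69, 6.30 and 5.52 at 1%. All 6 libraries at reduced oxygen lay below the lowest 21% library, and the 8% and 1% libraries overlapped. The log2 difference was −0.45 in both comparisons with 21%, with standard errors of 0.103, and it passed at 8% (limma, adjusted p = 0.0184) but not at 1% (limma, adjusted p = 0.0501). At 1% against 8% it was −0.0031, with a 95% interval of −0.24 to 0.23. Both comparisons with 21% share the same control libraries. The call at 8% ended without 8% replicate 1 (adjusted p = 0.0501) or 8% replicate 3 (adjusted p = 0.0637), and the adjusted p ran from 0.0142 to 0.0637 over the alternatives.

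Lsm6 (ENSMUSG00000031683, chr8:78804865-78821140, minus strand), also shared by both rings, was low at 8% oxygen alone among the 3 levels. Its values were 8.47, 7.45 and 9.69 FPKM at 21%, 6.69, 6.23 and 5.36 at 8% and 7.95, 7.89 and 7.36 at 1%. The 8% libraries lay below all others, and the 1% libraries lay inside the 21% range or just under it. The log2 difference was −0.42 at 8% against 21%, with a standard error of 0.101 (limma, adjusted p = 0.0205), and −0.12 at 1% against 21%, with a 95% interval of −0.35 to 0.11 (limma, adjusted p = 0.521). At 1% against 8% it was 0.30, with an interval of 0.07 to 0.54 (limma, adjusted p = 0.167). The call at 8% ended without 21% replicate 1 (adjusted p = 0.0542) or 8% replicate 3 (adjusted p = 0.0665) and in the fit to the 6 libraries compared (adjusted p = 0.0565), and the adjusted p ran from 0.0114 to 0.0665 over the alternatives.

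The library that stood apart was the highest of all 9 for 5 of the 9 relatives, Lsm2, Lsm3, Lsm4, Lsm6 and Lsm8. Without 21% replicate 3 the calls at 8% oxygen were still made, with log2 differences of −0.51 for Lsm4, −0.34 for Lsm2 and −0.34 for Lsm6 (limma, adjusted p = 0.00964, 0.0296 and 0.0424).

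**Figure D2:**
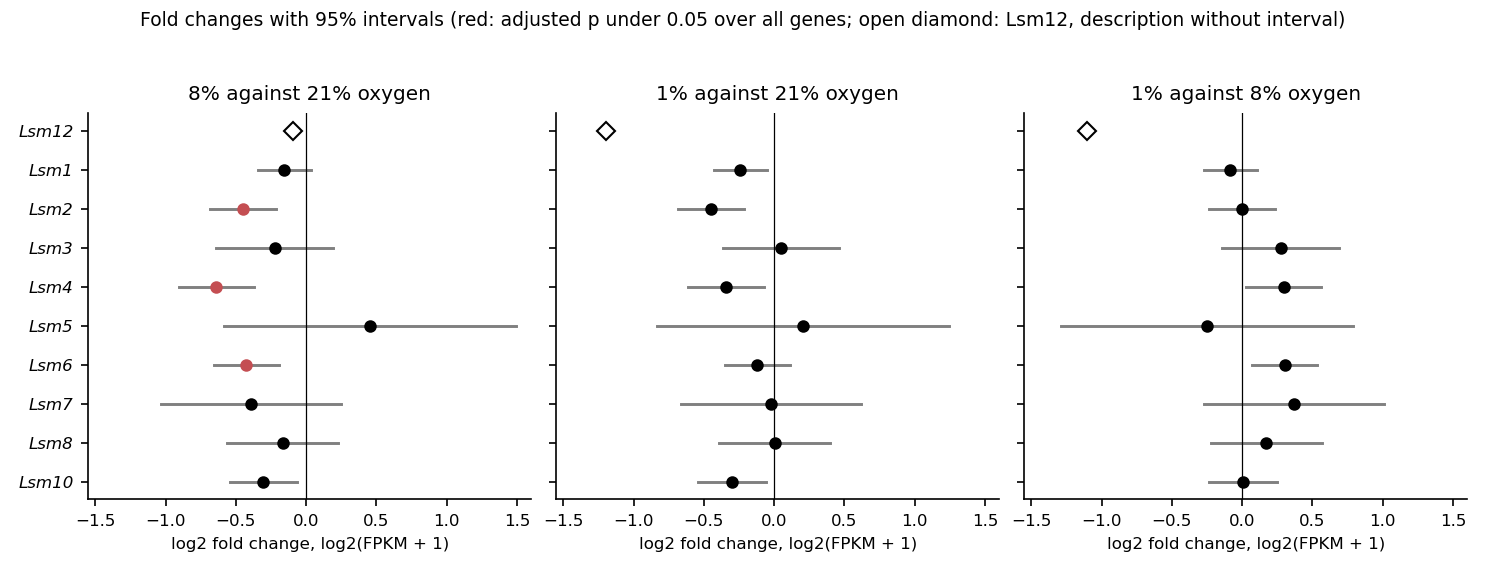
Log2 differences on the log2(FPKM + 1) scale (x axis) for each member (y axis) in the 3 comparisons, with 95% intervals from the fit. Red points passed the test, which Lsm4, Lsm2 and Lsm6 did at 8% against 21%. Lsm12, an open diamond with no interval, sat at −1.20 and −1.11 in the comparisons of 1% oxygen.

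The remaining shared subunits, Lsm3, Lsm5 and Lsm7, passed in no comparison and had the largest coefficients of variation within a level. Lsm7 (ENSMUSG00000035215, chr10:80852821-80855209, minus strand) was 9.60, 9.06 and 8.93 FPKM at 21% oxygen, 6.36, 10.2 and 4.69 at 8% and 9.39, 12.8 and 6.05 at 1%. Lsm5 (ENSMUSG00000091625, chr6:56701063-56704710, minus strand) was 2.03, 7.85 and 6.02 at 21%, 6.78, 5.11 and 9.24 at 8% and 8.28, 2.80 and 7.20 at 1%. Lsm3 (ENSMUSG00000034192, chr6:91515928-91522625, plus strand) was 4.55, 3.31 and 6.49 at 21%, 4.21, 3.34 and 3.98 at 8% and 5.18, 5.03 and 4.34 at 1%. The levels overlapped for all 3 genes except that every 1% library of Lsm3 exceeded every 8% library. The coefficient of variation within a level reached 56.1% for Lsm5, 39.8% for Lsm7 and 33.5% for Lsm3, and the 95% interval at 8% against 21% ran from −0.58 to 1.50 for Lsm5 and from −1.03 to 0.25 for Lsm7. Both intervals include 0. That of Lsm7 also includes a fall as large as that of Lsm4, and that of Lsm5 includes a rise of that size but not such a fall. Lsm3 overlaps the annotated sense transcript AC161456.1, which was not analysed here, so reads of the overlap may have been divided between them.

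The subunits that set each ring apart did not pass either. Lsm1 (ENSMUSG00000037296, chr8:25785288-25803975, plus strand), the subunit of the decay ring, was 11.2, 10.1 and 9.88 FPKM at 21% oxygen, 8.65, 9.28 and 9.74 at 8% and 9.58, 7.85 and 8.52 at 1%. Every library at reduced oxygen lay below the 21% libraries, by as little as the step from 9.74 to 9.88. The log2 difference was −0.16 at 8% (limma, adjusted p = 0.204) and −0.24 at 1% with a 95% interval of −0.43 to −0.05 (limma, adjusted p = 0.13). Lsm8 (ENSMUSG00000044155, chr6:18848579-18855751, plus strand), the subunit of the U6 ring, was 4.89, 5.05 and 8.02 FPKM at 21%, 4.69, 4.75 and 5.94 at 8% and 5.06, 6.66 and 5.99 at 1%, and all levels overlapped. Its log2 difference was −0.17 at 8% and 0.0037 at 1% against 21%, with intervals of −0.56 to 0.23 and −0.39 to 0.40. The ratio of Lsm1 to Lsm8 FPKM was 1.84 ± 0.546 at 21%, 1.81 ± 0.16 at 8% and 1.50 ± 0.364 at 1% (SD, n = 3). It thus differed between levels by less than the spread within 21%. That spread includes 21% replicate 3, the library that stood apart, at 1.23 against 2.29 and 2.00 in replicates 1 and 2.

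Lsm10 (ENSMUSG00000050188, chr4:126096623-126098584, plus strand), the U7 subunit, was 9.20, 8.46 and 7.80 FPKM at 21% oxygen, 6.40, 7.29 and 6.34 at 8% and 7.78, 5.78 and 6.65 at 1%. The reduced-oxygen libraries all lay below the 21% range, at 1% by as little as the step from 7.78 to 7.80. The log2 differences were −0.31 and −0.30 against 21%, and neither passed (limma, adjusted p = 0.067 and 0.134).

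At 1% against 21% none of the 9 relatives was called, where 4.24% of all genes tested were called, 1.35% higher and 2.89% lower. At an unadjusted p under 0.05 there were 4 of the 9, Lsm2, Lsm4, Lsm1 and Lsm10, all lower, with no all-gene share computed. That count is therefore not read as a result. The same 4 had levels that did not overlap, where 28.3% of all genes did not overlap, 19.2% in the lower direction. The median log2 difference of the relatives was −0.12 against −0.05 over all genes tested. In this comparison 31.8% of all calls were higher as deposited, 53.9% after median-ratio scaling and 47.7% after quantile normalization. At 1% against 8% none of the 9 was called, where 0.127% of all genes were called, 0.0675% higher and 0.059% lower. Lsm4 and Lsm6 had an unadjusted p under 0.05, both higher at 1%, again with no all-gene share computed. Lsm3, Lsm4 and Lsm6 did not overlap there, all higher, where 33.1% of all genes did not overlap and 16.3% did so in the higher direction. The median over the relatives was 0.17 against −0.0031 over all genes.

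The order of FPKM within the family, which depends on the union exon length of each gene, was fixed only at its top. Lsm4 ranked first in all 9 libraries. Lsm12 ranked second in each library at 21% and 8% oxygen, above Lsm1 without overlap, and ranked 7, 6 and 4 in the 1% libraries. Several relatives moved over as many places or more between libraries, Lsm7 between places 2 and 9, Lsm5 between 4 and 10 and Lsm2 between 3 and 9. At 21% the means below Lsm12 ran from 10.4 FPKM for Lsm1 through 9.20 for Lsm7, 8.83 for Lsm2, 8.53 for Lsm6 and 8.49 for Lsm10 to 5.99 for Lsm8, 5.30 for Lsm5 and 4.79 for Lsm3, and from Lsm7 downwards each gene overlapped the next. At 1% Lsm12, at 6.96, lay between Lsm6 at 7.74 and Lsm10 at 6.74, with its libraries overlapping those of Lsm10.

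Set against the median of its 9 relatives in the same library, Lsm12 was 2.05 ± 0.11 times that median at 21% oxygen, 2.58 ± 0.18 times at 8% and 0.988 ± 0.106 times at 1% (SD, n = 3). The ratio was higher at 8% than at 21% while Lsm12 itself was slightly lower, since the median of the relatives was 5.94 to 6.45 FPKM in the 8% libraries and 7.85 to 8.93 in the 21% libraries. The summed level of the shared subunits Lsm2 to Lsm7, of which Lsm4 makes up most, was 111 ± 16.8 FPKM at 21%, 77.3 ± 2.97 at 8% and 92.3 ± 6.25 at 1%. Without Lsm4 the sum averaged 36.6 FPKM at 21%, 30.2 at 8% and 34.3 at 1%. Its 8% libraries, at 29.1 to 31.3, lay below its 21% libraries, at 33.0 to 41.4. They overlapped its 1% libraries, at 30.5 to 37.5. Lsm2 had nearly the same mean at 8% and 1%, and Lsm5 had its highest mean at 8%. The sum with Lsm4 was thus lowest at 8% and Lsm12 at 1%, but the gap in the sum between 8% and 1% came mostly from Lsm4.

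**Figure D3:**
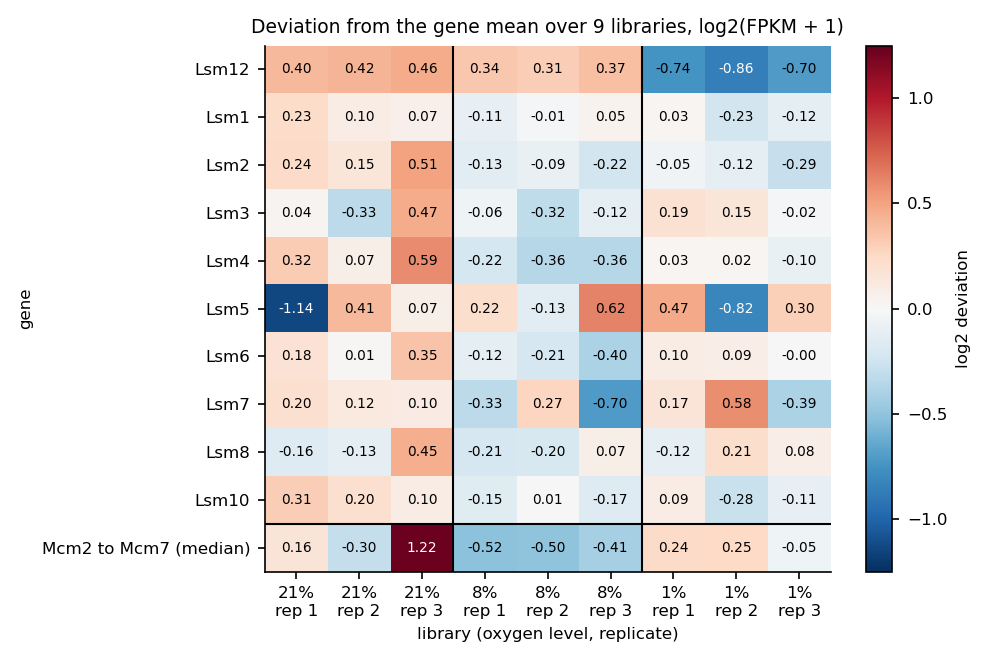
Deviation of each member (rows) in each library (columns) from its own mean over the 9 libraries, in log2(FPKM + 1) units. Lsm12 deviated by 0.31 to 0.46 in the 21% and 8% libraries and by −0.86 to −0.70 in the 1% libraries. The bottom row gives the median over Mcm2 to Mcm7, which reaches 1.22 in 21% replicate 3.

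Over the 9 libraries, which share their oxygen levels, the highest Pearson correlations of log2 values among the members were 0.939 for Lsm4 with Lsm6, 0.883 for Lsm1 with Lsm10 and 0.878 for Lsm2 with Lsm4. Those of Lsm12 with its relatives ran from −0.28 with Lsm3 to 0.64 with Lsm1. The genes most like Lsm12 were chosen for their correlation with it among the 7237 genes averaging 5 FPKM or more, and the 8 highest were Ctdnep1 (0.936), Sh2b1 (0.932), Mbd6 (0.931), Poldip3 (0.929), Sec23ip (0.927), Rrp8 (0.923), Ifrd1 (0.923) and Tmem131 (0.920). All 8 changed far less than Lsm12 in size. Rrp8, a nucleolar methyltransferase gene, went from 6.50 ± 0.546 FPKM at 21% to 5.55 ± 0.351 at 8% and 4.07 ± 0.379 at 1%, a log2 difference of −0.56 between the outer levels. Sh2b1, which encodes a signalling adaptor, went from 23.8 ± 1.75 to 24.6 ± 0.629 and 18.1 ± 0.868, a log2 difference of −0.38. Ctdnep1, a nuclear envelope phosphatase gene, went from 34.6 ± 0.667 to 34.7 ± 0.822 and 31.0 ± 0.506, a log2 difference of −0.15.

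The 4 tested genes near Lsm12 on chromosome 11 were called at neither reduced oxygen level, which for so few genes is not read as a result. No annotated gene overlaps Lsm12. Of the 4 nearest protein-coding genes on each side, Tmem101, G6pc3, Hdac5 and BC030867 entered the tests. None was called in any of the 3 comparisons. Over all genes tested, 23.3% were called at 8% against 21%, 4.24% at 1% against 21% and 0.127% at 1% against 8%. G6pc3, a glucose-6-phosphatase gene on the opposite strand, has its start site 4.32 kb from that of Lsm12. It was 8.03, 6.06 and 7.36 FPKM at 21% oxygen, 5.9997, 5.59 and 4.14 at 8% and 4.71, 6.85 and 7.10 at 1%, so that the 1% libraries overlapped both other levels. Its log2 difference at 1% against 21% was −0.18 with a standard error of 0.169 (limma, adjusted p = 0.559). Tmem101, a transmembrane protein gene on the other side, was 6.02 ± 0.572 FPKM at 21% and 6.04 ± 0.249 at 1%, and the deacetylase gene Hdac5 was 8.03 ± 0.786 and 8.62 ± 0.577. Nags and Pyy were at most 0.0191 and 0.117 FPKM in any library, and Ppy and Asb16 were not analysed here.

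**Figure D4:**
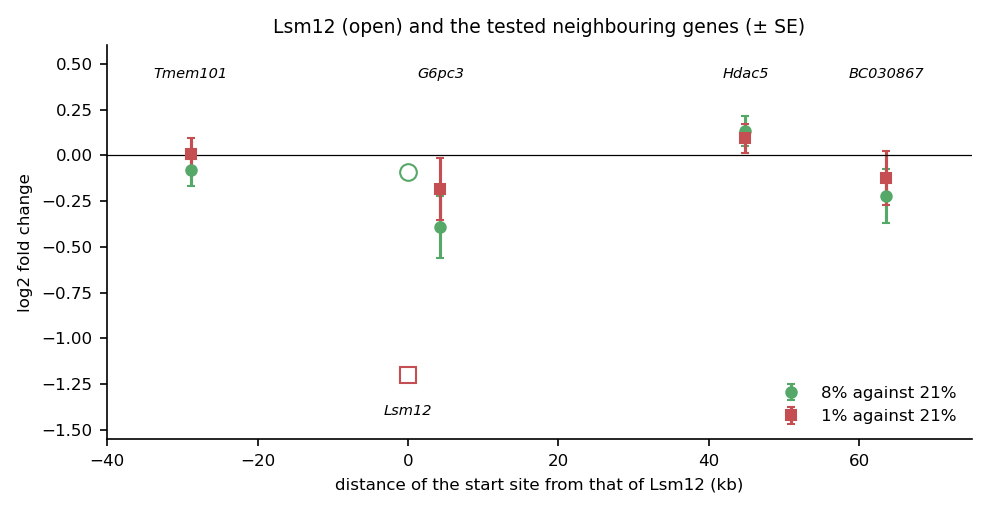
Log2 differences on the log2(FPKM + 1) scale (y axis) against the distance of each start site from that of Lsm12 (x axis, kb), for 8% against 21% (green circles) and 1% against 21% oxygen (red squares), with standard errors for the 4 tested neighbours. Lsm12, in open symbols, lies at −0.09 and −1.20, and G6pc3, 4.32 kb away, at −0.39 and −0.18.

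Jpt2, Tpcn1 and Tpcn2, genes of the calcium signalling in which LSM12 takes part, were called at 8% against 21% and had their lowest mean levels at 8% oxygen. Of 8 tested genes in the list of LSM12 partners and NAADP signalling, 3 were called lower and 0 higher at 8% against 21%, where 14.9% of all genes were called lower, with a median log2 difference of −0.13 against −0.04 over all genes. At 1% against 21% 1 was called lower, where 2.89% of all genes were, with a median of −0.07 against −0.05. No gene of the list was called at 1% against 8%, where 0.127% of all genes were. In that comparison 3 had an unadjusted p under 0.05, with no all-gene share computed. Jpt2, which encodes another NAADP-binding protein, was 18.3, 17.6 and 20.4 FPKM at 21%, 13.01, 12.4 and 12.3 at 8% and 15.3, 15.6 and 14.8 at 1%. The 3 levels did not overlap, with 8% the lowest. The log2 difference was −0.54 at 8% (limma, adjusted p = 0.00185) and −0.28 at 1% against 21% (limma, adjusted p = 0.0482). The call at 1% ended in 12 of 16 alternatives, among them leaving out 21% replicate 1 or any 1 library of 8% or 1%, with adjusted p from 0.0345 to 0.139 over all 16. Tpcn2, which encodes the lysosomal channel TPC2, had low levels of 1.29, 1.18 and 1.49 FPKM at 21%, 0.39, 0.596 and 0.492 at 8% and 0.819, 0.839 and 0.881 at 1%. Here too the levels did not overlap and 8% was lowest. The log2 difference was −0.64 at 8% (limma, adjusted p = 0.00342) and −0.33 at 1% against 21% (limma, adjusted p = 0.0805). Tpcn2 reached 1 FPKM only in its 21% libraries, so it entered the tests through the group where it was high. Its call, 1 of the 3 counted above, is therefore not support for a fall. At so low a level the added 1 FPKM shrinks the difference: the ratio of means at 8% to 21% was 0.374, and the log2 difference was −1.27 with a pseudocount of 0.1 (limma, adjusted p = 0.00456, over a range of 0.00423 to 0.0194 in the alternatives). Tpcn1, the gene of TPC1, had a log2 difference of −0.24 at 8% (limma, adjusted p = 0.0277), a call that ended in 10 of 15 alternatives, among them leaving out 21% replicate 1, 21% replicate 3 or any 1 of the 8% libraries, with adjusted p from 0.0257 to 0.079 over the 15. The ataxin-2 gene Atxn2 was 8.55 ± 1.22, 9.37 ± 0.958 and 8.14 ± 0.683 FPKM at 21%, 8% and 1%, and did not pass (limma, adjusted p = 0.457 at 8% and 0.806 at 1% against 21%).

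The list of the SMN complex, which loads Sm proteins onto small nuclear RNAs, and of Sm ring assembly had the most genes called lower. This list also holds genes outside that complex, Prmt5 among them. At 8% against 21%, 7 of the 13 tested genes of the list were called lower and 0 higher, where 14.9% of all genes were called lower. The estimates of all 13 lay below 0, as did those of 6621 of the 11856 genes tested. Their median was −0.34 against −0.04 over all genes. At 1% against 21%, with the same control libraries, 4 were called lower, where 2.89% of all genes were. The estimates of all 13 again lay below 0, as did those of 7108 of the 11856 genes tested. The median was −0.23 against −0.05 over all genes. At 1% against 8% none was called, where 0.127% of all genes were. None had an unadjusted p under 0.05 there, with no all-gene share computed. Gemin6, an SMN subunit with an Sm fold of its own, was 9.17, 9.49 and 9.43 FPKM at 21%, 7.29, 7.06 and 6.06 at 8% and 7.15, 6.70 and 6.59 at 1%, so both reduced levels lay below the 21% libraries and overlapped each other. Its log2 differences were −0.41 and −0.41 (limma, adjusted p = 0.00655 and 0.025). Smn1 itself, the core subunit, was 9.25 ± 0.552 FPKM at 21%, 6.20 ± 0.21 at 8% and 6.74 ± 1.10 at 1%, with log2 differences of −0.51 (limma, adjusted p = 0.0113) and −0.41 (limma, adjusted p = 0.0588). Prmt5, whose product methylates Sm tails, fell by 0.35 log2 units and Strap, an SMN-associated WD-repeat protein gene, fell by 0.22 at 8% (limma, adjusted p = 0.0077 and 0.0113). In the comparison of 1% with 21%, Strap, Gemin2 and Gemin5 fell by 0.23, 0.35 and 0.43 log2 units (limma, adjusted p = 0.0343, 0.0383 and 0.0424). The 7 calls at 8% became 5 without 21% replicate 3 and 4 without 21% replicate 1, 8% replicate 1 or 8% replicate 3, with no filter or in the fit to the 6 libraries compared. The 4 calls at 1% became 0 without 21% replicate 1, 21% replicate 2, 1% replicate 1 or 1% replicate 2 and in the fit to the 6 libraries compared. They became 1 without 8% replicate 1 or 1% replicate 3, 2 without 8% replicate 3, and 3 without 21% replicate 3 or 8% replicate 2. They also became 1 after median-ratio scaling and 2 with no filter or after quantile normalization. Calls over all genes moved under these alternatives too. The 503 at 1% against 21% became 64 in the fit to the 6 libraries compared and ran from 63 to 883 with a library left out. The 2765 at 8% against 21% became 1606 and ran from 1479 to 2987.

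The canonical Sm proteins form the sister ring around the spliceosomal small nuclear RNAs. Of 8 tested genes, 2 were called lower and 0 higher at 8% against 21%, with a median of −0.11. Over all genes 23.3% were called there and 14.9% were called lower. None was called at 1% against 21%, where 4.24% of all genes were, or at 1% against 8%, where 0.127% were. At an unadjusted p under 0.05 there were 2 and 3, with no all-gene share computed. Snrpb, which encodes SmB, went from 87.8 ± 2.94 to 69.3 ± 1.04 FPKM at 8%, a log2 difference of −0.34 (limma, adjusted p = 0.00344). Snrpd3, which encodes SmD3, went from 22.9 ± 2.48 to 17.6 ± 0.655, a log2 difference of −0.35 (limma, adjusted p = 0.0231). The 2 calls became 1 without 21% replicate 1 or any 1 of the 8% libraries, and 3 without 21% replicate 2. It was Snrpd3 that no longer passed, with adjusted p between 0.00969 and 0.0754 over the alternatives.

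Among 9 other proteins with an LSM or Sm-like domain, 2 were called higher and 1 lower at 8% against 21%, where 8.38% of all genes were called higher and 14.9% lower, with a median of −0.06. Lsm11, the partner of LSM10 in the U7 ring, was 3.88, 4.21 and 4.16 FPKM at 21%, 6.28, 7.82 and 6.31 at 8% and 3.68, 4.09 and 4.61 at 1%. The 8% libraries stood above all others, and the 1% and 21% libraries overlapped. Lsm11 rose by 0.61 log2 units at 8% (limma, adjusted p = 0.00488), the direction opposite to the estimate of −0.31 for Lsm10, and the difference at 1% against 8%, −0.61, did not pass (limma, adjusted p = 0.0647). Lsm14b, an mRNA-binding protein gene, rose by 0.28 log2 units (limma, adjusted p = 0.044), a call that ended in 11 of 16 alternatives, among them leaving out any 1 library except 21% replicate 1, with adjusted p from 0.0187 to 0.122. Gemin6 was the single call in this list at 1% against 21%, where 4.24% of all genes were called. That call ended in 7 of 16 alternatives (limma, adjusted p from 0.0181 to 0.106). No gene of the list was called at 1% against 8%, where 0.127% of all genes were called. In that comparison 2 genes had an unadjusted p under 0.05, with no all-gene share computed.

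In the wider U7 and histone processing list, which also holds Lsm11, 1 of 11 tested genes was called higher and 2 lower at 8% against 21%, where 23.3% of all genes were called, with a median of −0.13. Those that fell were Cstf2 and Cpsf2, genes of the cleavage machinery, by 0.61 and 0.29 log2 units (limma, adjusted p = 0.00442 and 0.0223). The call of Cpsf2 ended without 8% replicate 1 (adjusted p = 0.06) or 8% replicate 2 (adjusted p = 0.0625), over a range of 0.0177 to 0.0625. None was called at 1% against 21% or against 8%, where 4.24% and 0.127% of all genes were. In each, 3 genes had an unadjusted p under 0.05, with no all-gene share computed.

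The partners of the U6 ring split in direction. Of 21 tested genes of the U6 and U4/U6.U5 particles, 5 were called lower and 2 higher at 8% against 21%, where 14.9% of all genes were called lower and 8.38% higher, with a median of −0.04, the same as over all genes. Eftud2, a GTPase gene of the U5 particle, fell by 0.44 log2 units, Larp7, which encodes a protein that guides U6 modification, by 0.63, and Snu13, which encodes a U4-binding protein, by 0.31 (limma, adjusted p = 0.00457, 0.0129 and 0.00784). Ddx23, a U5 helicase gene, rose by 0.29 log2 units, from 14.6 ± 0.188 to 18.0 ± 0.858 FPKM (limma, adjusted p = 0.00897). None was called at 1% against 21%, where 4.24% of all genes were, or at 1% against 8%, where 0.127% were. At an unadjusted p under 0.05 there were 6 and 9, with no all-gene share computed. The 7 calls at 8% became 4 without 8% replicate 1 or 8% replicate 2 and in the fit to the 6 libraries compared.

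Among the decapping factors that work with the LSM1 ring, 1 of 9 tested genes was called at 8% against 21%, where 23.3% of all genes were called, with a median of 0.07. It was Dcp2, the decapping enzyme gene, which rose from 3.17 ± 0.422 to 4.57 ± 0.966 FPKM, a log2 difference of 0.41 (limma, adjusted p = 0.0451), and the call ended in 10 of 15 alternatives, among them leaving out any 1 library except 21% replicate 2, with adjusted p from 0.0281 to 0.122. No decapping gene was called at 1% against 21%, where 4.24% of all genes were, or at 1% against 8%, where 0.127% were. At an unadjusted p under 0.05 there were 1 and 3, with no all-gene share computed.

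**Figure D5:**
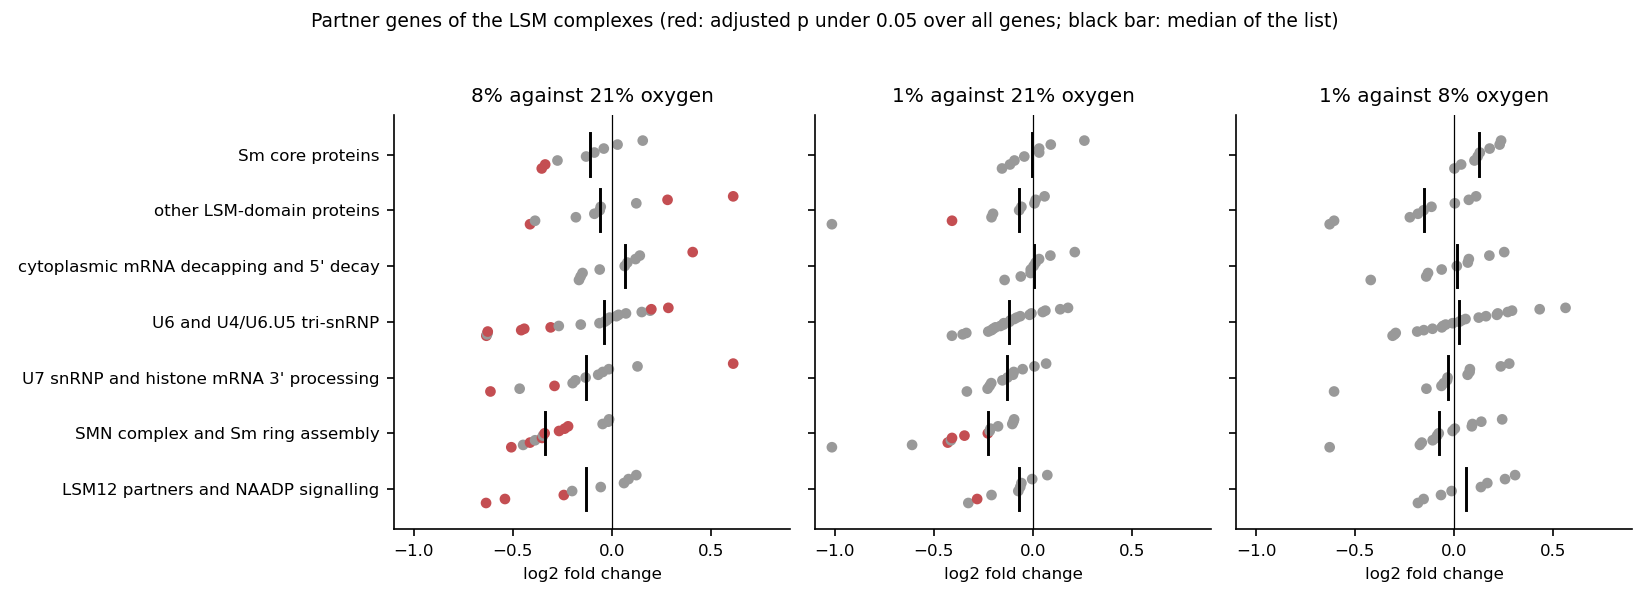
Log2 differences on the log2(FPKM + 1) scale (x axis) of every tested gene in the 7 partner lists (y axis) for the 3 comparisons, with called genes in red and a black bar at the median of each list. All 13 genes of the SMN list lie below 0 in both comparisons with 21% oxygen, and no gene of any list is called at 1% against 8%.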

How the data were processed

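Polyadenylated RNA of 9 libraries was prepared from 1 µg of TRIzol-extracted total RNA with a TruSeq Stranded mRNA kit, per the labels' protocols. The authors deposited a table of FPKM per gene with 26445 entries. StringTie 1.3.4d, HISAT2 2.0.4, cutadapt 1.9.1 and FastQC 0.11.8 are named in the submitters' processing notes, with mm10 as the build. The sources used here do not state the strand setting, the annotation release or how transcripts were summed. For genes with several transcripts in GENCODE M21, 98.5% of values became whole at the sixth decimal (tolerance 0.01) when multiplied by the union exon length, as a length-weighted sum over transcripts would give, and this held in all 9 libraries for every member. Read counts and depth are unknown, so no counting interval is given, and the 3 libraries per level limit the precision.

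Genes that reached 1 FPKM in 3 or more of 9 libraries were tested with limma 3.58.1 (R 4.3.3) after taking log2(FPKM + 1), with all 9 libraries in 1 model of group means, a mean-variance trend, Benjamini-Hochberg adjustment over all 11856 genes tested and an adjusted p threshold of 0.05, two-sided. The fit was tested on simulated data with known changes. Intervals are 95% and unadjusted. The share of all genes at an unadjusted p under 0.05 was not computed, so counts at that level are not read as a result. Positive differences mean higher at the lower oxygen level. The members and lists were chosen with earlier results of these data known. Named are all members, up to 4 called genes with the smallest p of each list and comparison, the 8 genes most correlated with Lsm12, and the 4 nearest protein-coding genes on each side of it. Alternatives were the filter, the pseudocount, the scaling, the libraries in the fit, the replicate number as a block and leaving out each library. Counts per list under these alternatives were added after the data had been seen.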

Additional observations from a re-analysis of the deposited data

How the results depend on the processing

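Each result was recomputed under up to 16 alternatives, 9 of which left out a library. Of 26 named differences that passed the test, 14 passed in every alternative that gave a value, among them that of Lsm4 at 8% oxygen, and none changed sign. Of 24 that did not pass, 2 passed in some alternative, Lsm4 and Lsm2 at 1% against 21%. The number of relatives called at 8% against 21% ran from 1 to 3 with a library left out. At 1% against 21% it ran from 0 to 1, and was 1 with a mean of at least 5 FPKM as the filter. Lsm12 kept its direction throughout: its log2 difference at 1% against 21% was −1.30 with a pseudocount of 0.1, −1.15 after median-ratio scaling and −1.15 after quantile normalization, and at 1% against 8% it was −1.20 with a pseudocount of 0.1.

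The number of calls over all genes depended more on the settings. The 2765 calls at 8% against 21% became 1606 in the fit to the 6 libraries compared and ran from 1479 to 2987 with a library left out. The 503 at 1% against 21% became 222 with no filter, 333 after quantile normalization, 72 with the replicate block and 64 in the fit to 6 libraries, and ran from 63 to 883 with a library left out. The 15 at 1% against 8% became 4 with no filter, 1 with the replicate block, 484 in the fit to 6 libraries and 56 under the filter on a mean of at least 5 FPKM, and ran from 1 to 435. The cause was not tested.

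None of the estimates that changed sign was called. They were not all small: in the main fit those of Lsm5 were 0.46 at 8% against 21%, 0.21 at 1% against 21% and −0.25 at 1% against 8%. Lsm7 at 1% against 21% was 0.0252 after median-ratio scaling and 0.0414 after quantile normalization, and Lsm2 at 1% against 8% was 0.0011 after median-ratio scaling. With a library left out, the difference at 8% against 21% ran from −0.0029 to 0.77 for Lsm5 and from −0.28 to 0.0309 for Lsm8. At 1% against 21% it ran from −0.25 to 0.61 for Lsm5, −0.25 to 0.23 for Lsm7, −0.10 to 0.20 for Lsm8 and −0.14 to 0.25 for Lsm3. At 1% against 8% it ran from −0.0556 to 0.0640 for Lsm2, −0.0895 to 0.10 for Lsm10 and −0.49 to 0.15 for Lsm5.

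Replicate numbers are shared between levels in the labels, but deviations of libraries with the same number correlated between −0.30 and 0.10, so the numbers were not taken as pairs. With the replicate block 2 relatives were called at 8% against 21%, and Lsm2 was not one of them (limma, adjusted p = 0.0505). The block also left 4 genes of the SMN list called at 8% against 21% and 0 at 1% against 21%. Lsm3, Dcp2, Cstf2, Tpcn1 and Tpcn2 have no value under the filter on a mean of at least 5 FPKM. Depth is unknown, so low levels such as that of Tpcn2 carry an unknown counting error.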
